A study of Mus musculus with 31 samples.

Results

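The brains of newborn mice were compared 6 h after magnesium sulfate (MgSO4) with those of control mice on 7 microarrays, out of 31 in the series. Each array was a 2-colour Agilent whole mouse genome array. Its Cy5 channel held RNA of MgSO4-treated mice and its Cy3 channel RNA of controls, and the 7 arrays were taken by their titles, as replicates 1 to 7. All mice were of the outbred NMRI strain, aged 5 days, and no genetic change was named in either group. Treated mice received 600 mg/kg MgSO4, by subcutaneous injection in the labels and by intraperitoneal injection in the methods. Controls received PBS in the labels and were untreated in the methods, so whether the ratios contain an effect of injection itself cannot be told apart from that of MgSO4. Each channel held RNA pooled from 6 hemispheres, 3 of males and 3 of females, so no value belongs to 1 animal. The labels call the arrays biological replicates. The methods give fewer independent samples at a time point than there are arrays here, so that some arrays may share a pool, and p-values are then too small.

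Magnesium ions block the pore of the NMDA receptor, the glutamate-gated channel that admits calcium into neurons, and they compete with calcium at other channels. MgSO4 is given to mothers before very preterm birth to protect the brain of the newborn. The mouse brain in its first days of life has growing axons, forming synapses and oligodendrocyte precursors, with myelination just starting.

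Probes entered the test when the scanner software marked Cy3 or Cy5 as well above background on 5 or more of the arrays, which left 22860 of 39429 probes. The measure is the log2 ratio of Cy5 to Cy3, so that a positive value is a higher signal in the MgSO4 channel. In these bulk samples fewer cells of a type and less RNA per cell cannot be told apart. All 12 neuronal, 11 astrocyte and 11 microglial marker genes of 3 lists were tested and were well above background in both channels on all 7 arrays, as were 12 of 13 oligodendrocyte lineage markers, so the RNA carried the brain's main cell types. The share of spots well above background was 45.2% to 68.6% in Cy3 and 54.8% to 64.7% in Cy5. No spot was saturated.

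The arrays did not repeat each other evenly. They lay on 4 slides. Slide 1 held replicates 1 and 5, slide 2 replicates 2 and 6, slide 3 replicates 3 and 7, and slide 4 replicate 4. Over the tested probes the log2 ratios of replicates 2 and 6 correlated at r = 0.85 and those of replicates 3 and 7 at 0.55, while replicates 1 and 5, also of a single slide, correlated at 0.23. Between slides the highest value was 0.63, for replicates 4 and 5. Replicates 3 and 7 correlated at -0.40 to -0.04 with the other 5 arrays. These are correlations across probes, which are no independent replicates. The first principal component of the ratios held 47.9% of their sum of squares, and replicates 3 and 7 had the opposite sign on it to the other 5 arrays. On those 2 arrays fewer spots were well above background in Cy3 (49.9% and 45.2%) than in Cy5 (56.0% and 56.6%).

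**Figure D1:**
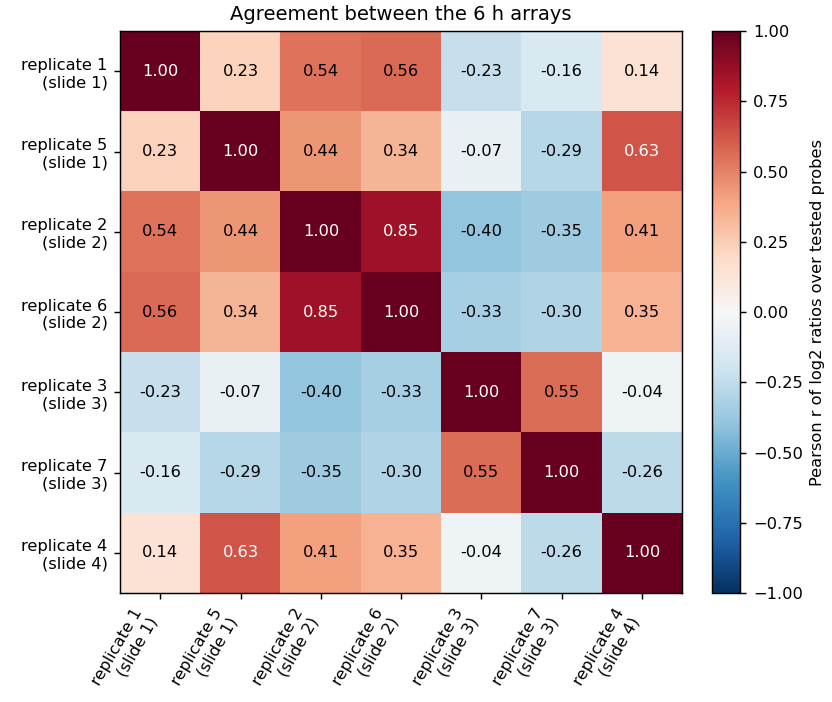
Pearson correlation of log2 ratios (Cy5 over Cy3) between the 7 arrays at 6 h, over the tested probes, with arrays ordered by slide and the colour giving r from -1 to 1. Replicates 3 and 7, on slide 3, correlate at or below -0.04 with every other array, and replicates 2 and 6, on slide 2, have the highest value, 0.85.

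The labels put the same dye on the same group on all 7 arrays, yet replicates 2 and 3 correlated at -0.40. The cause of this was not tested, and the direction of the ratios rests on the labels alone. The 10 spike-in RNAs, synthetic transcripts added in known proportions to the 2 labelling reactions, ran in 1 orientation on all 7 arrays. The spike-in with the highest ratio, a22, lay between 2.55 and 4.13 on the log2 scale, and that with the lowest, n9, between -3.63 and -1.56. The slope of measured on expected log2 ratio was 0.83 to 0.93. The channels of replicates 3 and 7 were therefore read as on the other arrays, which says nothing of which pool was put into which reaction. Directions below are Cy5 against Cy3. Turning the sign of all 7 arrays would only exchange the counts of higher and lower genes. Turning replicates 3 and 7 alone would change the means, the calls and the counts of shared signs, and was not tested.

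**Figure D2:**
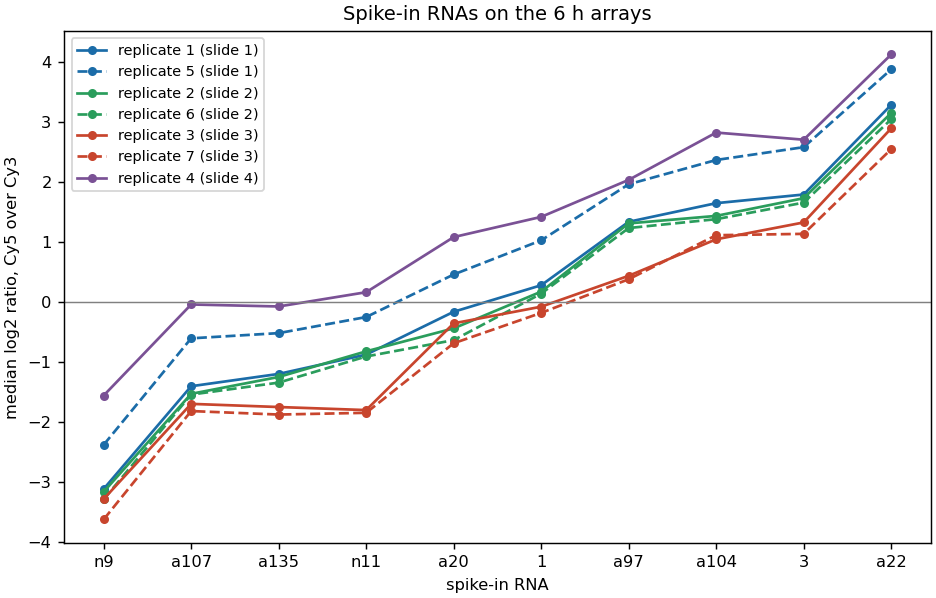
Median log2 ratio of Cy5 to Cy3 (vertical axis) for each of 10 spike-in RNAs (horizontal axis) on the 7 arrays at 6 h, 1 line per array. All 7 lines rise from n9 (-3.63 to -1.56) to a22 (2.55 to 4.13) and none is turned around.

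Only 7 probes passed the test, at an adjusted p under 0.05 in limma's fit against 0 and a fold change of 1.5 or more, which is 0.0306% of those tested. Of these, 5 were higher in Cy5 (0.0219%) and 2 lower (0.00875%), with all arrays read as labelled. They were the probes of Stat5a, Syt15, Rps14, Cntrob and Trim16 and 2 probes with no gene symbol, A_55_P2227760 and A_66_P139200. At an unadjusted p under 0.05 there were 3175 probes (13.9%), of which 1852 were higher (8.1% of those tested) and 1323 lower (5.79%). Means below 0 made up 48.7% of all probes. The count rests on treating the arrays of a slide as independent: with slide as a random block, whose estimated correlation was 0.61, limma called 0 probes (1480 at an unadjusted p under 0.05, smallest adjusted p 0.252), and with the arrays of a slide averaged it also called 0 (1519, smallest adjusted p 0.426). It also rests on single arrays. Without replicate 1, 2, 4 or 6 the count was 0, without replicate 3 it was 1, without replicate 5 it was 2, and without replicate 7 it was 24.

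Stat5a, a transcription factor that carries cytokine and growth hormone signals to the nucleus, was higher in Cy5 on 7 of 7 arrays. Its log2 ratio was 1.39, 0.89, 1.72, 1.06, 1.67, 1.30 and 0.98 on replicates 1 to 7. The mean was 1.29 ± 0.33 (SD, n = 7), with an adjusted p of 0.0221 in limma. Slide 3 held both the highest value and 1 of the 3 lowest. The signals were small, 5.64 to 13.8 units in Cy3 and 16.8 to 32.1 in Cy5, and Cy3 was well above background on 1 array and Cy5 on 5, so the size of the ratio is uncertain. At 3 h this probe had a mean ratio of 0.09 ± 0.20 (SD, n = 4), and later means of 1.43 ± 0.40 (12 h, n = 4) and 1.13 ± 0.57 (24 h, n = 4). The difference between 6 h and 3 h did not pass (adjusted p = 0.6 in limma). The 3 h arrays lay on other slides than those of 6, 12 and 24 h, so slide and time cannot be told apart here.

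Syt15 belongs to the synaptotagmins, a family of membrane trafficking proteins of which several sense calcium at the synapse. The ratio of its probe was 1.34, 1.31, 0.88, 1.28, 0.99, 1.52 and 1.44 on replicates 1 to 7, a mean of 1.25 ± 0.23 (adjusted p = 0.0157 in limma, the smallest of all probes). Cy3 was not well above background on any array and Cy5 was on 5. Syt15 thus entered the test through Cy5 alone, the channel where it is high, and the fold has only a lower bound. Against the lowest signal well above background in Cy3, or the probe's own where higher, the mean of Syt15 was at least 2.06-fold higher in Cy5. Such bounds compare channels after quantile scaling of the mean signals, and without dye-swapped arrays they are open to dye bias. They hold for means over the arrays and take no account of the spread, so single arrays can lie below them. A further Syt15 probe, A_55_P2000978, did not pass the filter on dim spots.

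Rps14, a protein of the small ribosomal subunit, was the 1 bright gene among the 7, with signals of 128999 to 207997 units in Cy3 and 240004 to 342988 in Cy5. Its ratio was 0.74, 0.88, 0.60, 0.90, 0.52, 1.08 and 0.76 on replicates 1 to 7, a mean of 0.78 ± 0.19 (SD, n = 7), 1.72-fold, with an adjusted p of 0.0478 in limma. The lowest array, replicate 5, was still 0.52 above 0.

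Cntrob encodes centrobin, a protein of the daughter centriole. Its ratio was -0.91, -0.96, -0.87, -0.71, -0.64, -0.72 and -0.77 on replicates 1 to 7, with the smallest SD of the 7 probes (mean -0.80 ± 0.12, adjusted p = 0.0221 in limma). Cy3 was well above background on 5 arrays and Cy5 on 5, not shown to be the same ones. Signals were 38.0 to 70.9 units in Cy3 and 20.9 to 43.0 in Cy5. Trim16, of the tripartite motif family, had ratios of -0.57, -0.96, -0.74, -1.08, -1.25, -0.81 and -1.03, a mean of -0.92 ± 0.23 (adjusted p = 0.0311 in limma). Its Cy3 signal was well above background on 6 arrays and its Cy5 signal on 4, and a further probe of the gene, A_55_P1998947, was too dim to be tested.

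The 2 probes without a symbol were higher on every array. A_55_P2227760 lay between 1.69 (replicate 7) and 4.34 (replicate 4), with a median of 3.11 and a mean of 3.11 ± 0.93 (adjusted p = 0.0221 in limma). Its Cy3 signal, 2.66 to 7.03 units, was well above background on no array, and the bound on its mean was at least 5.63-fold. A_66_P139200 lay between 0.62 (replicate 5) and 1.65 (replicate 7), with a mean of 1.21 ± 0.34 (adjusted p = 0.0263 in limma), and was well above background on 4 arrays in Cy3 and on all 7 in Cy5.

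Of the 7 probes 6 were dim, with signals of at most 71.6 units. When ratios were taken from the median signals with normexp background correction, an offset of 50 and loess, limma called 0 probes (4097 at an unadjusted p under 0.05). The mean of Stat5a was then 0.03, Syt15 0.09, Cntrob -0.11, Trim16 -0.13, A_55_P2227760 0.28 and A_66_P139200 0.12. An offset of that size pulls ratios of signals this low towards 0 by its construction, so these values do not test them. Rps14 alone kept its size, at 0.99 with an adjusted p of 0.077 in limma.

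The same probes can be read on arrays with the same dye layout but other samples. These are the 12 arrays of MgSO4 at 3, 12 and 24 h and 6 arrays of hypoxia-ischemia (HI) against control, taken 3 or 12 h after HI, which by title and source had no MgSO4, although their treatment label names it. Counts out of 19 include the 7 arrays at 6 h on which the probes were called, all of 1 sign. Only the rest of each such count comes from other samples. A_55_P2227760 and Rps14 were higher in Cy5 on all 19 MgSO4 arrays and on 6 of 6 HI arrays, where their means were 2.39 ± 1.1 and 0.38 ± 0.22. Syt15 was higher on 18 of 19 and on 6 of 6 HI arrays (0.77 ± 0.36). Stat5a was higher on 17 of 19 but averaged 0.22 ± 0.51 on the HI arrays, with 1 of them below 0. Trim16 was lower on 16 of 19 and averaged -0.23 ± 0.67 on the HI arrays. A_66_P139200 was higher on 14 of 19, with means of -0.05 at 3 h and 0.38 at 12 h, and on 6 of 6 HI arrays (0.34 ± 0.33). Cntrob set 6 h apart: its highest value at 6 h, -0.64, was below the lowest on the other 12 MgSO4 arrays, -0.39. On the HI arrays Cntrob averaged 0.19 ± 0.41, with a lowest value of -0.53. As no array had its dyes swapped, a probe's own dye response and an effect of MgSO4 cannot be told apart. The 3 h arrays and the HI arrays also lay on other slides than the 6 h arrays, so slide differs with the samples there.

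**Figure D3:**
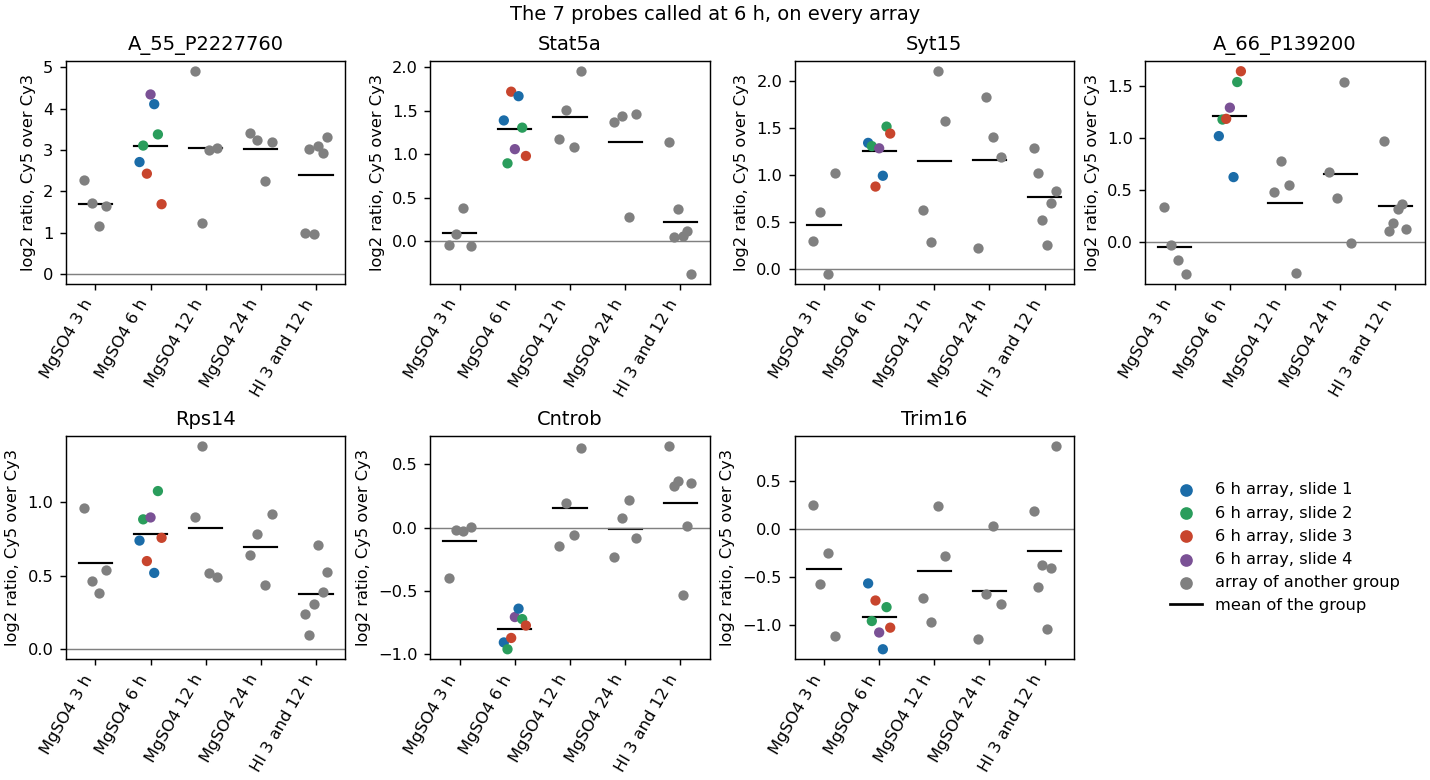
Log2 ratio of Cy5 to Cy3 (vertical axis) of the 7 probes that passed the test at 6 h, on each MgSO4 array by time and on the HI arrays. Points are arrays, coloured by slide at 6 h, and black lines are group means. Rps14 and A_55_P2227760 are above 0 in every group, and the 7 values of Cntrob at 6 h lie below all its other MgSO4 values.

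Signs that all 7 arrays shared were more common than calls. Of the tested probes 831 (3.64%) were above 0 on all 7 arrays and 602 (2.63%) below, 6.27% together. Of the 831, 216 (26.0%) were also above 0 on all 6 HI arrays, against 12.2% of all probes tested, and 176 (21.2%) on all 12 other MgSO4 arrays, against 1.49%. Of the 602, 154 (25.6%) were below 0 on all 6 HI arrays (15.1% of all probes) and 92 (15.3%) on all 12 other MgSO4 arrays (1.16%). The 831 and 602 were chosen by their sign at 6 h, and the probes beside them were not. All these arrays had the same dye layout, and those of 12 and 24 h lay on the 6 h slides. Dye response, slide and MgSO4 cannot be told apart in these shares.

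Among genes with an unadjusted p under 0.05 and 1 sign on all 7 arrays, the 10 with the highest means were Gm12886, Cela2a, 4930429F11Rik, Trpc7, Fabp2, Igfbp1, Gpr35, Foxd4, AY074887 and Pmfbp1. None had an adjusted p under 0.05 in limma (0.0674 to 0.114). Several are known from other organs: Cela2a is a pancreatic elastase, Fabp2 the intestinal fatty acid-binding protein, and Pmfbp1 a gene of sperm. Cela2a ranged from 0.57 (replicate 7) to 4.16 (replicate 6), median 2.64, mean 2.58 ± 1.14, with Cy3 well above background on 1 array. On the HI arrays it averaged 2.54 ± 0.70. Gm12886, 4930429F11Rik and Gpr35, a G protein-coupled receptor, had no array with Cy3 well above background. The bounds on their means were at least 4.49-fold, 3.85-fold and 2.62-fold. Their HI means were 2.32, 1.75 and 1.96, close in size to their 6 h means of 2.65, 2.44 and 1.99.

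Trpc7 and Igfbp1 differed in their HI values. Trpc7, a cation channel of the TRPC family that passes calcium, had ratios of 3.31, 3.30, 0.63, 3.05, 1.88, 3.42 and 0.97 on replicates 1 to 7, lowest on both arrays of slide 3 (mean 2.37 ± 1.19). It averaged 0.62, 1.67 and 1.25 at 3, 12 and 24 h and 0.27 ± 0.67 on the HI arrays. Its Cy3 signal was well above background on 1 array. Igfbp1, a secreted protein that binds insulin-like growth factors, had ratios of 3.56, 1.73, 3.09, 0.40, 1.97, 0.48 and 2.94 (mean 2.02 ± 1.25). It averaged 1.17 ± 2.13 at 3 h, 0.03 at 12 h and -0.34 at 24 h, and was above 0 on 6 of 6 HI arrays (1.31 ± 0.42). Its difference from 24 h, 2.36, had an adjusted p of 0.999 in limma. Cy3 of Igfbp1, at 5.27 to 15.8 units, was well above background on 1 array, so the size of its ratio is uncertain. The other 3 genes, Fabp2, Foxd4 (a forkhead transcription factor) and AY074887, averaged 2.03, 1.82 and 1.37, and Pmfbp1 1.36. Cy3 was well above background on 1 array for Fabp2, 2 for Foxd4, 3 for AY074887 and 5 for Pmfbp1.

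The 10 lowest means were those of Slc2a10, Trim16, Slc16a4, Dzip1l, Piezo2, Cntrob, Slain2, Gpr101, Nfam1 and C130026L21Rik, from -0.97 to -0.67. Beside Trim16 and Cntrob none passed the test (adjusted p 0.0801 to 0.185 in limma). Slc2a10, a facilitative glucose transporter, ranged from -2.02 (replicate 2) to -0.36 (replicate 7), with a mean of -0.97 ± 0.52. Its Cy5 signal was well above background on no array, and its mean was at least 1.88-fold higher in Cy3. Piezo2, a mechanically gated ion channel, ranged from -1.51 (replicate 4) to -0.27 (replicate 6), mean -0.80 ± 0.51, with Cy5 well above background on 1 array. Slc16a4, of the monocarboxylate transporter family, had a mean of -0.84 ± 0.72, and was lower on all 6 HI arrays too (-1.18 ± 0.43). At 6 h it ranged from -2.13 (replicate 7) to -0.17 (replicate 3), with Cy5 well above background on 1 array. Slain2, a protein of growing microtubule ends, had -0.76 ± 0.38 and was above 0 on all 6 HI arrays (0.39 ± 0.25). The mean of Dzip1l, a ciliary protein, was -0.82 ± 0.39. Gpr101, Nfam1 and C130026L21Rik averaged -0.69, -0.68 and -0.67.

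The genes with the largest spread over the 7 arrays were Tescl, Spock1, Vmn1r236, Zbtb34 and Olfr173, with SDs of 1.86 to 2.77. Spock1, an extracellular proteoglycan of the brain, was -1.16, -2.19, 0.92, -1.87, -1.91, -1.84 and 3.01 on replicates 1 to 7, above 0 on slide 3 alone. Zbtb34 and Olfr173 showed that split too, at 1.59 and 1.61 for Zbtb34 and 1.96 and 2.56 for Olfr173 on slide 3, against values below 0 on the other 5 arrays. Tescl divided otherwise, with -2.51 and -3.09 on replicates 4 and 5 and 0.86 to 3.62 on the rest. Vmn1r236, a vomeronasal receptor gene, was -0.38 on replicate 7 and 1.93 to 5.06 elsewhere, with Cy3 well above background on no array. The bound on its mean, at least 6.00-fold, does not hold for replicate 7. The means of Spock1, Zbtb34 and Olfr173 (-0.72, -0.86 and -0.33) thus stand for none of the arrays on slide 3.

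Groups of genes were then read by their counts and medians, with 1 probe per gene, the brightest. Over all 14094 genes tested, 50.2% had a mean below 0, 7.67% had an unadjusted p under 0.05 and were higher, 5.85% were lower, 3.54% were above 0 and 2.64% below 0 on all 7 arrays, and 0.0355% passed the test. The median of all genes was -0.07 to 0.07 on single arrays. A list is described here with no test of its own.

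Synaptic gene lists differed between the 6 h arrays of slide 2 and those of slide 3. For glutamate receptors, the channels and G protein-coupled receptors of excitatory synapses, 21 of 23 genes were tested, 12 had means above 0 and 9 below, and 0 passed the test. Their median was -0.25, -0.33, 0.35, 0.14, 0.03, -0.30 and 0.25 on replicates 1 to 7, above 0 on both arrays of slide 3 and below on both of slide 2. Grin1, the obligatory subunit of the NMDA receptor, the target of magnesium block, was -0.73, -1.21, 0.48, -0.63, -0.19, -1.46 and 0.28 (mean -0.49 ± 0.72, adjusted p = 0.394 in limma). Grin2b, the NMDA receptor subunit of the immature brain, was -1.47 to 0.80 with a median of 0.18. Grin2a had the highest mean of the list (0.41 ± 1.05) and Grin3a the lowest (-0.50 ± 1.16). In 10 of the 21 genes both arrays of slide 2 were below 0 and both of slide 3 above, and in 1 the reverse, against 26.6% and 21.0% of all genes. The arrays of slides 2 and 3 lay at opposite ends of the first principal component, so such counts are not independent of it.

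Subunits of a single receptor class did not move together. Of the AMPA receptor subunits, which carry fast excitation, Gria1 had a mean of -0.44 ± 0.32 and was below 0 on 6 arrays, while Gria2, the subunit that limits calcium entry, had 0.35 ± 0.44 and was above 0 on 6. Gria4 lay between 0.10 and 0.37 on all 7 arrays (mean 0.22 ± 0.08), a narrower range than that of any other member above 0 on all arrays. Grm3 and Grm7, metabotropic receptors, were also above 0 on all 7, with means of 0.30 and 0.24. The adjusted p values of Gria1, Gria2, Gria4, Grm3 and Grm7 were 0.185 to 0.348 in limma, so none passed.

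The postsynaptic scaffold list, adhesion proteins, scaffolds and the kinase CaMKII, had 21 of 23 genes tested, 16 with means below 0 and 0 called. Its median was -0.52, -0.48, 0.48, -0.01, -0.16, -0.64 and 0.42 on replicates 1 to 7. Shank3, which links glutamate receptors to the actin skeleton, had the lowest mean (-0.64 ± 0.73), from -1.40 on replicate 6 to 0.48 on replicate 3. Nlgn1, a postsynaptic adhesion protein, had the highest (0.34 ± 0.22) and was above 0 on all 7 arrays, as were Camk2a (0.33 ± 0.18) and Homer1 (0.23 ± 0.18). Homer3 was below 0 on all 7 (-0.38 ± 0.21). None of these 5 passed the test (adjusted p 0.161 to 0.303 in limma). Homer1 and Homer3, relatives that tie metabotropic receptors to the scaffold, thus had opposite signs on every array.

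In the vesicle release list 29 of 30 genes were tested and 21 had means below 0, with a median of -0.71 to 0.36 on single arrays. Cplx1, which clamps and primes vesicle fusion, had the lowest mean (-0.65 ± 0.89) and Pclo, a presynaptic scaffold, the highest (0.41 ± 0.27). Syngr3, of synaptic vesicles, was the 1 member with a single sign, -0.30 ± 0.20. The GABA synapse list (20 genes) had medians of -0.35 to 0.33, the calcium channel list (13 of 18 tested) -0.34 to 0.33, and the axon guidance list (37 of 38) -0.49 to 0.47. In each of these 4 lists the 2 highest medians were those of replicates 3 and 7, and 0 genes were called. Epha5, a guidance receptor, was above 0 on all 7 arrays (0.39, adjusted p = 0.138 in limma). Cacnb3, an accessory calcium channel subunit, had the lowest mean of its list (-0.45 ± 0.50), and Gabrb1, a GABA-A receptor subunit, that of its list (-0.47).

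**Figure D4:**
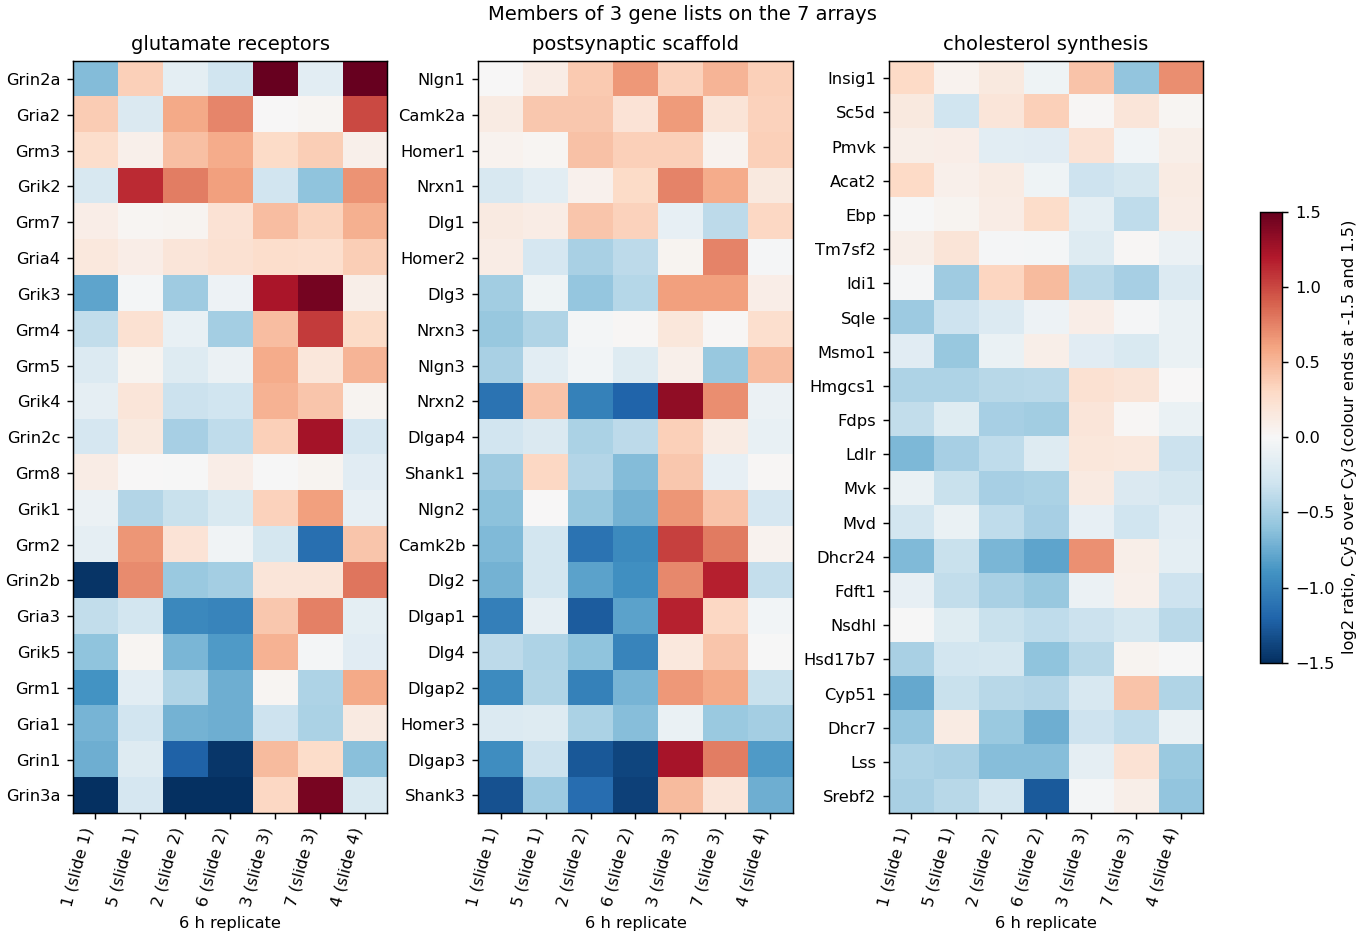
Log2 ratio of Cy5 to Cy3 (colour) of tested members of the glutamate receptor, postsynaptic scaffold and cholesterol synthesis lists (rows, ordered by mean; 1 member of the last list is not drawn) on the 7 arrays (columns, ordered by slide). In the scaffold list the columns of slide 3 are mostly above 0 and those of slide 2 mostly below, while most cholesterol synthesis genes with low means are below 0 in nearly every column.

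Immediate early genes, which respond to activity within minutes, had 14 of 19 tested means below 0 and medians of -0.39 to -0.29 on 5 arrays against 0.40 and 0.42 on replicates 3 and 7. Arc, an activity-regulated synaptic gene, had the lowest mean (-0.64 ± 0.86) and Fosb the highest (0.71 ± 0.76). Dusp1, a phosphatase of MAP kinases, was above 0 on all 7 arrays, from 0.13 to 0.76 (mean 0.36 ± 0.25, adjusted p = 0.207 in limma). The progenitor and young neuron list (18 of 20 tested) had medians of -0.36 to 0.39, again highest on replicates 3 and 7.

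The medians of 2 lists, cytosolic ribosomal proteins and the respiratory chain, were above 0 on every array, but not above the median of all genes on every array. On replicates 3 and 7 the ribosomal medians were 0.0447 and 0.0656, against 0.0454 and 0.0675 for all genes. The cytosolic ribosomal protein list had 84 of 86 genes tested, all well above background in both channels on every array, and its median was above 0 on 7 of 7 arrays, 0.04 to 0.19. Of its members 53 had means above 0 and 31 below, 25 were higher and 6 lower at an unadjusted p under 0.05, and 1, Rps14, passed the test. On all 7 arrays 26 were above 0 and 5 below, against 3.54% and 2.64% of all genes. The largest means after Rps14 with 1 sign were Rpl35 (0.73, adjusted p = 0.0674 in limma), Rps10 (0.58), Rpl9 (0.56) and Rpl32 (0.53), and the lowest was Rpl3 (-0.36, below 0 on all 7 arrays). Genes of a single particle thus had opposite signs. Of the 26, 16 were above 0 on all 12 other MgSO4 arrays too and 10 on all 6 HI arrays. Over all probes above 0 on the 7 arrays these shares were 21.2% and 26.0%.

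The respiratory chain list (79 of 81 tested) had a median above 0 on 7 of 7 arrays, but by 0.00 to 0.23. On replicates 1, 3 and 7 its medians of 0.007, 0.0047 and 0.0065 lay below those of all genes, 0.0256, 0.0454 and 0.0675. On every array 11 members were above 0 and 3 below, against 3.54% and 2.64% of all genes. Uqcrh, a complex III subunit, had the highest mean (0.36). Of the 11, 1 was above 0 on all 12 other MgSO4 arrays and 0 on all 6 HI arrays (21.2% and 26.0% of all such probes). Of the 3 below 0, 0 were so on all 12 other MgSO4 arrays and 3 on all 6 HI arrays (15.3% and 25.6% of all such probes). Counts this small describe the members only. Mitochondrial ribosomal proteins (76 of 77) had medians of -0.16 to 0.22, in the reverse order of the synaptic lists, with replicates 2 and 6 highest, and proteasome subunits (37 of 39) -0.10 to 0.07.

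Cholesterol synthesis genes leaned to Cy3. All 23 were tested and well above background in both channels on every array, 17 had means below 0, 9 (of 23) were lower at an unadjusted p under 0.05 against 5.85% of all genes, and 0 passed the test. The median was -0.17, -0.27, -0.12, -0.10, -0.30, -0.38 and 0.01 on replicates 1 to 7, below 0 on 6 of 7 arrays. Srebf2, the transcription factor that governs the pathway, had the lowest mean (-0.42 ± 0.44), and was near 0 on slide 3 (-0.03 and 0.09). Lss, lanosterol synthase, had -0.38 ± 0.31, and Dhcr7, of the last step to cholesterol, -0.36 ± 0.30. Mvd and Nsdhl, enzymes of the early and late pathway, were below 0 on all 7 arrays (-0.26 and -0.27, adjusted p = 0.241 and 0.221 in limma). Insig1, which restrains the pathway when sterols are plentiful, had the highest mean (0.14 ± 0.41). Within each slide the list's median was lower at 6 h than at 12 h, by 0.13 to 0.30, and than at 24 h, by 0.00 to 0.42 on 4 of 4 slides, and no test was made of the list.

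**Figure D5:**
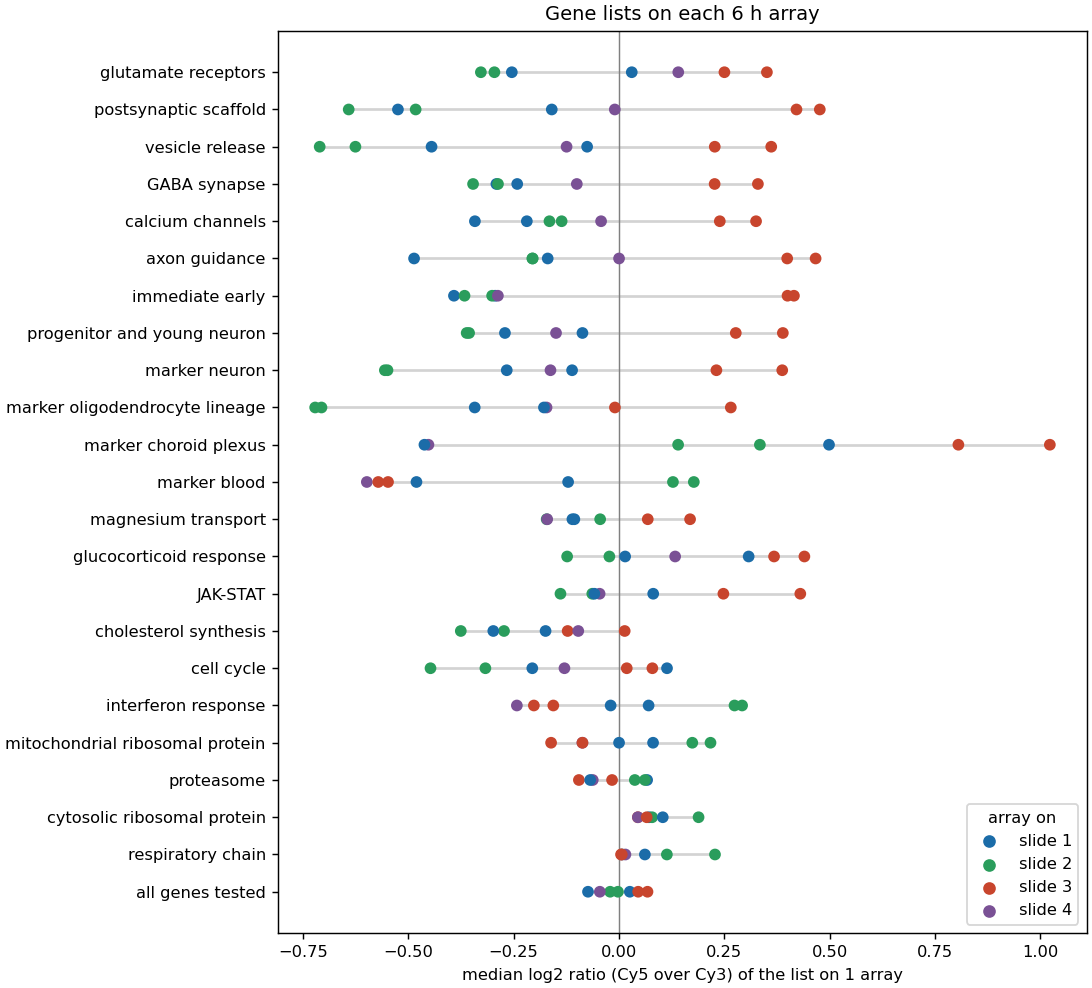
Median log2 ratio of Cy5 to Cy3 (horizontal axis) of gene lists (rows) on each array at 6 h, coloured by slide, with grey lines joining the lowest and highest array. In the synaptic lists slide 3 lies right of 0 and slide 2 left of it. The cytosolic ribosomal protein and respiratory chain lists lie above 0 on all 7 arrays, though not above the median of all genes on each. That median lies between -0.07 and 0.07.

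In the glucocorticoid response list, genes induced by stress hormone, 18 of 18 were tested, 13 had means above 0, 5 were higher at an unadjusted p under 0.05 (7.67% of all genes), and 0 passed. Its median was above 0 on 5 arrays and below on replicates 2 and 6. Plin4, a lipid droplet protein, had the highest mean (0.80 ± 0.77, from -0.01 to 2.40). The metallothioneins Mt1 and Mt2, small metal-binding proteins, agreed array by array, at 1.14 and 1.12 on replicate 1, -0.02 and -0.22 on replicate 2, 1.38 and 1.58 on replicate 3, and -0.04 and -0.23 on replicate 6 (both means 0.70). Sgk1, a kinase induced by glucocorticoids, was above 0 on all 7 arrays (0.04 to 0.43, mean 0.28 ± 0.14). Cdkn1a, a cell cycle inhibitor, had the lowest mean (-0.28).

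Among 18 of 20 tested genes of magnesium transport 7 had means above 0 and 11 below, and 0 passed. Trpm7, a channel and kinase that admits magnesium, had the highest mean (0.34 ± 0.32, above 0 on 6 arrays, adjusted p = 0.276 in limma). Slc41a1, which exports magnesium, had the lowest (-0.55 ± 0.80), with -1.48 on replicate 6 and 0.75 on replicate 3. Mmgt2, a magnesium transporter of internal membranes, was below 0 on all 7 arrays (-0.24 ± 0.17).

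Stat5a, Cntrob and Syt15 were next set beside their relatives, of which none passed the test. In the JAK-STAT list (25 of 28 tested, 14 means above 0) Stat5a was the 1 call. Its paralog Stat5b averaged 0.20 ± 0.23, and Cish and Socs2, known target genes of STAT5, -0.16 ± 0.13 and 0.17 ± 0.17. Socs4 and Pias2 were above 0 on all 7 arrays (0.57 and 0.23), and Stat4 had the lowest mean (-0.67 ± 0.79). In the centriole and centrosome list (22 of 22 tested, 11 above 0 and 11 below) Cntrob was the 1 call, with Nek2, a centrosomal kinase, next (-0.65 ± 0.70), and Pcm1, a protein of centriolar satellites, highest and above 0 on all 7 arrays (0.45 ± 0.30). Of 12 tested synaptotagmins of 16, Syt15 was called. Syt9 was below 0 on all 7 arrays (-0.50 ± 0.25, adjusted p = 0.114 in limma), Syt16 above 0 on all 7 (0.36 ± 0.49), and Syt7 had the lowest mean (-0.99 ± 1.47).

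Other lists held 0 calls. The cell cycle list (25 of 27 tested) had 20 means below 0 and medians of -0.45 to 0.11, with Ccnd1, a G1 cyclin, lowest (-0.53), and Mcm5, of the replicative helicase, below 0 on all 7 arrays (-0.29). Inflammation genes (11 of 23 tested) had medians of -0.12 to 0.21; the chemokine Ccl3 had the lowest mean (-0.63) and the chemokines Ccl4 and Ccl2 the highest (0.37 each), while Il1b, Il6 and Tnf did not pass the filter on dim spots. The interferon response list (11 of 23) had medians of -0.24 to 0.29, with replicates 2 and 6 highest, and its highest mean was that of Oas1a, an antiviral enzyme (0.77 ± 0.67). Hypoxia response genes (17 of 19) had -0.13 to 0.17, and Slc2a1, the glucose transporter of the blood-brain barrier, was above 0 on all 7 arrays (0.52, adjusted p = 0.182 in limma). Circadian clock genes (14 of 20) ranged from -0.30 to 0.60 and heat and cold shock genes (16 of 17) from -0.21 to 0.20.

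Marker lists of cell types differed in how they varied. The neuronal list had medians of -0.27, -0.55, 0.39, -0.16, -0.11, -0.56 and 0.23 on replicates 1 to 7, in 10 of its 12 genes below 0 on both arrays of slide 2 and above on both of slide 3. Nefh, a neurofilament, had the lowest mean (-0.57) and Elavl4, a neuronal RNA-binding protein, the highest (0.11). Summed signals of the 12 genes were 147008 to 278715 units in Cy3 and 139174 to 213924 in Cy5. Oligodendrocyte lineage markers (12 of 13 tested) had medians of -0.72 to 0.27 and 11 means below 0. Olig2, a transcription factor of the lineage, was below 0 on all 7 arrays (-0.43, adjusted p = 0.129 in limma), as was the myelin gene Mag (-0.41), while Mog had 0.19. Astrocyte and microglial medians were -0.39 to 0.26 and -0.08 to 0.25. The part of cell composition in the ratios of the synaptic lists was not tested.

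Choroid plexus and blood lie beside the brain's own cells and can enter a dissection. Choroid plexus markers (8 of 11 tested) had medians of 0.50, 0.14, 0.81, -0.45, -0.46, 0.33 and 1.02 on replicates 1 to 7, with Ttr, the transthyretin that this tissue makes, from -0.71 (replicate 4) to 2.21 (replicate 7). Summed signals were 1852 to 20458 units in Cy3 and 7480 to 19106 in Cy5. Blood markers (7 of 12 tested) had medians of -0.60 to 0.18, below 0 on 5 arrays, and Hba-a1, an alpha globin, was below 0 on all 7 (-0.37, adjusted p = 0.157 in limma). Their summed signals were 258937 to 394486 units in Cy3 and 211075 to 349535 in Cy5. Markers of cortex, striatum, thalamus and hypothalamus had medians of -0.54 to 0.51, -0.23 to 0.25, -0.56 to 0.59 and -0.44 to 0.65, and those of the hypothalamus were highest on replicates 2 and 6. Endothelial, pericyte, meningeal, ependymal and hindbrain lists lay within -0.17 to 0.05, -0.52 to 1.33, -0.14 to 0.22, -0.23 to 0.62 and -0.51 to 0.10.

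The sex markers checked the pools, which by label held 3 males and 3 females in each channel. Xist, the RNA of the inactive X chromosome, was 1.47, 0.99, 1.05, 0.64, 0.44, 0.96 and 0.49 on replicates 1 to 7, above 0 on all (mean 0.86 ± 0.37, adjusted p = 0.0801 in limma). The Y-linked Ddx3y did not mirror it, at -0.43 on replicate 1 and 0.12 to 0.51 on the others (mean 0.28 ± 0.35), and Eif2s3y averaged 0.26 ± 0.44.

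Whether the 6 h ratios differed from those of the other times was tested in a fit over 19 arrays. No probe passed for 6 h against 3 h (0% of 25536, 1323 at an unadjusted p under 0.05), 12 h (0%, 3393) or 24 h (0%, 919) in limma. The 3 h arrays lay on other slides, so slide and time cannot be told apart there, while each of the 4 slides held 1 array of 12 h and 1 of 24 h. Cntrob came closest, 0.95 lower at 6 h than at 12 h on the log2 scale (difference -0.95, adjusted p = 0.0679 in limma), and passed with slide as a random block (adjusted p = 0.0289, the 1 probe called). Within the slides it was lower at 6 h than at 12 h by 0.97, 1.46, 0.77 and 0.56 on slides 1 to 4, and than at 24 h by 0.69, 0.91, 1.04 and 0.47. With slide as a fixed block 0 probes were called against either time (4696 and 1248 at an unadjusted p under 0.05).

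The synaptic lists were set beside the other times within slides. The scaffold median at 6 h differed from that at 12 h by -0.35 on slide 1, -1.31 on slide 2, 0.09 on slide 3 and -0.18 on slide 4. On slide 2 the 12 h array had a median of 0.75, so that arrays of that slide lay on both sides of 0. The 4 arrays of 3 h had scaffold medians of -0.37 to 0.19. Those of 12 h lay at 0.01 to 0.75 and those of 24 h at 0.00 to 0.33. The 7 arrays of 6 h, more than at any other time, lay at -0.64 to 0.48. The lowest median of the 19 was that of replicate 6 at 6 h, on slide 2. Slide 3 at 6 h had medians of 0.48 and 0.42.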

How the data were processed

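The authors scanned 2-colour Agilent arrays and extracted them with Feature Extraction 10.5.1.1. The deposited processed intensity of each spot had its background and spatial trend removed and its dyes scaled to each other in each array (linear, then LOWESS); the deposited median intensities are uncorrected. The authors' series table holds log10 ratios, with undetected spots at 0. Log2 ratios were computed here without spots marked as outliers, and spots of a probe were averaged. RefSeq accessions named 27421 of 39429 probes (69.5%, 20828 symbols). R 4.3.3 with limma 3.58.1 tested mean ratios against 0 (lmFit, eBayes), with Benjamini-Hochberg adjustment over all tested probes; differences between times were contrasts. Called means an adjusted p under 0.05 and 1.5-fold (log2 0.58). Named genes are those called, the 10 highest and 10 lowest means (unadjusted p under 0.05, 1 sign on all arrays), the 5 largest SDs, and each list's extremes and members of 1 sign; other members (such as Grin1, Gria1, Gria2, Lss, Dhcr7, Mt1, Mt2, Stat5b, Cish, Socs2, Nek2, Ccl2) were chosen after their values were seen, and some members are not reported here. The members and the 40 gene lists were chosen with earlier results of these data known. The fit was tested on simulated data. Alternatives changed the background correction, filters, weights, blocks and replicates. Signal over background stands for depth. The 6 arrays with both channels after HI were not used here.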

Additional observations from a re-analysis of the deposited data

Results flagged for a closer look

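Of 76 sets of 7 values examined, 4 had an array apart from the rest by Dixon's test, and chance gives about 1 in 20. Fabp2, the intestinal fatty acid-binding protein, was 4.83 on replicate 4, with 2.22 next. C130026L21Rik was -1.14 on replicate 5, with -0.72 next. The median of the cytosolic ribosomal protein list was 0.19 on replicate 6, with 0.10 next. The slope of measured on expected spike-in ratios was 0.83 on replicate 4, with 0.90 next. Piezo2, the mechanically gated ion channel, was below 0 on all 7 arrays at 6 h (mean -0.80) and above 0 on all 4 at 3 h (mean 0.28); the opposite signs were not tested on their own, and in the fit over 19 arrays the difference did not pass (adjusted p = 0.912 in limma).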

How the results depend on the processing

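The count of 7 called probes at 6 h was 0 with median signals, normexp and loess, 0 with probes well above background in both channels on every array, 0 with slide as a random block and 0 with the arrays of a slide averaged (chosen after seeing the data), 2 with no filter on dim probes and 4 with only probes of 1 symbol. It was 33 with an intensity trend and robust prior, 361 as the 6 h coefficient of the fit over 19 arrays, 936 with array weights and 2049 without replicates 3 and 7. The methods' t-test gave 339 probes at an unadjusted p under 0.05 with 1.5-fold and 5 after Benjamini-Hochberg adjustment. The study's rule also admitted probes by a larger fold change alone, which was not applied here, so 339 is not a count by its full rule. Leaving out 1 replicate at a time gave 0 to 24. All spots kept, centred arrays, the series table and no minimum fold each gave 7, the same 7 probes. The 936 and 2049 probes included the 7 as well; the cause of their number was not tested.

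The 0 probes that differed between 6 h and 3 h became 2 with array weights, 1 of them Trpc7. Between 6 h and 12 h, 0 became 3100 with array weights, 1 with slide as a random block and 1 with only probes of 1 symbol, and between 6 h and 24 h the count stayed at 0 under every alternative. Leaving out 1 replicate at a time gave 0 to 0 for all 3. The replicate block over the numbers the times share gave 0, 0 and 0 for 3, 12 and 24 h; same-numbered arrays correlated at -0.15 to 0.56 in their deviations, so the numbers name arrays without pairing them. Among the named probes 1 mean changed sign, that of Olfr173, which lay at -0.82 to 0.011 with 1 replicate left out and was 0.011 without replicate 2. List medians stayed within 1 SD of the arrays in 836 comparisons; the 4 that moved were the centriole and centrosome list with the strict filter (0.16), cytosolic ribosomal proteins with normexp and loess (0.14), and endothelial markers without replicate 7 (-0.23) and without replicates 3 and 7 (-0.20). The number of arrays and the dim signals limit the precision.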

Other observations

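Single channels, centred on each array's 75th percentile, were compared between arrays of a slide as deviations from the mean of the 7 arrays. Replicates 2 and 6 correlated over tested probes at 0.80 in Cy3, the control pools, and 0.61 in Cy5, and replicates 3 and 7 at 0.50 in Cy3 and 0.81 in Cy5. Replicates 1 and 5 correlated at -0.37 and -0.39. Whether arrays of a slide held RNA of the same pools is not given in the sources used here. Replicate 3 correlated at 0.56 and 0.61 with the 12 h arrays of replicates 3 and 4, on slides 3 and 2, and replicate 2 at -0.50 with the latter, although both lay on slide 2.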
